A study of Zea mays with 18 samples.

Results

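In laser-captured maize endosperm, 14 nuclear gene models were read in every starchy endosperm library and hardly or not at all in any aleurone library. They were chosen from 46430 counted features, 44146 of them nuclear gene models, by 2 limits on the level (CPM, the counts of a feature for each mega-count, M, on all features of the library): 20 CPM or more in all 9 starchy endosperm libraries and below 1 CPM in all 9 aleurone libraries. A further 4 features were left out by ID. Because the choice used both compartments, the gap between aleurone and starchy endosperm is given below as a description without a test. The tests concern the genotypes, whose labels the choice did not use. The limit of 20 CPM in all 9 starchy endosperm libraries still kept out any gene model nearly unread in 1 genotype. Large differences between genotypes were thus limited in advance. The deposited tables carry feature IDs only, and the gene table available for maize names 0 of the 14, so each is called by its ID and no function is given.

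The 18 libraries come from endosperm of the inbred line W22 at 19 days after pollination, from field-grown, self-pollinated plants. They form 6 groups of 3, aleurone (AL) and starchy endosperm (SE) of plants with R1-g, of plants with R1-sc and of plants with r1-m3. All 3 genotypes carry alleles of the locus R1 in the shared W22 background, and the design calls R1-g the wild type. The labels call the 3 libraries of a group biological replicates and do not say how many kernels or plants each one holds.

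The endosperm feeds the germinating seedling. Its inner mass, the starchy endosperm, fills with starch and storage proteins and dies as the kernel matures. The aleurone is the living outer cell layer, which later secretes enzymes that digest those reserves and which carries the anthocyanin pigment. R1 encodes a basic helix-loop-helix regulator of the anthocyanin genes and acts in the aleurone.

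Libraries held 14.3 to 20.4 mega-counts (M) on features in the aleurone and 12.5 to 17.5 M in the starchy endosperm, so 1 CPM stood for 14.3 to 20.4 aleurone counts and 20 CPM for 249.7 to 350.2 starchy endosperm counts. The 3 libraries of r1-m3 aleurone did not look independent of each other. Features with 200 or more counts in one library and 0 in another numbered 490 between replicates 1 and 2, but 164 between replicates 1 and 3 and 134 between replicates 2 and 3, where pairs within R1-g or R1-sc aleurone had 960 to 1350. In r1-m3 the remaining library of the group held 100% of such features whichever it was, against 54.3% to 69.4% in the 6 aleurone libraries of R1-g and R1-sc and 46.2% to 80.5% in the 9 starchy endosperm libraries. Replicate 3 thus stood nearer to each of the other 2 than these did to each other, and values without it are given. Leaving out a library from the choice can only add members. Without replicate 3 no member was added to the 14, nor without replicate 1 or replicate 2 of that group. Whether the dissected tissue matches its label could not be checked against named marker genes, since none of the nuclear IDs are named. In such dissected samples, fewer cells of a type and less RNA per cell cannot be told apart.

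The members had almost no counts in the aleurone, as the choice required. Together they had 244960 counts among 137.9 M in the starchy endosperm and 89 counts among 144.4 M in the aleurone. For 10 of the 14 there were 0 counts in all 9 aleurone libraries. With a floor of 3 counts over the 9 libraries, these 10 were at least 3109-fold to 15751-fold lower in the aleurone (2669-fold to 13523-fold without r1-m3 aleurone replicate 3). Floors and intervals cover counting error only, as the reads come from amplified cDNA without molecular identifiers. In pairs of R1-g or R1-sc aleurone libraries, 960 to 1350 features had 200 or more counts in one and 0 in the other. Pairs within the starchy endosperm groups had 44 to 257. A 0 in 1 aleurone library therefore need not mean that the RNA was absent.

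The 4 members with aleurone counts were Zm00001d002835, Zm00001d027649, Zm00001d035934 and Zm00001d045392. Zm00001d045392 had 34 aleurone counts, 14 in r1-m3 replicate 1, 10 in R1-g replicate 2 and 10 in r1-m3 replicate 3. Zm00001d027649 had 26, 11 in r1-m3 replicate 2, 11 in r1-m3 replicate 3 and 4 in R1-sc replicate 3. These are isolated libraries, and most of the counts lie in r1-m3. Zm00001d035934 had 18 counts, all in r1-m3, with 11 in replicate 1, 1 in replicate 2 and 6 in replicate 3. Zm00001d002835 had 11, with 9 in r1-m3 replicate 1 and 1 each in R1-g replicate 2 and r1-m3 replicate 3. Each of these 4 thus had counts in r1-m3 replicate 3 and in replicate 1 or 2 of that group. Their pooled level in the starchy endosperm was 177-fold (95% Poisson interval of the aleurone count 127 to 256) above that in the aleurone for Zm00001d045392 and 437-fold (298 to 669) for Zm00001d027649. For Zm00001d035934 the ratio was 504 (319 to 850) and for Zm00001d002835 it was 1127 (630 to 2258). Leaving out r1-m3 aleurone replicate 3, the 4 ratios spanned 216 to 1065.

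**Figure D1:**
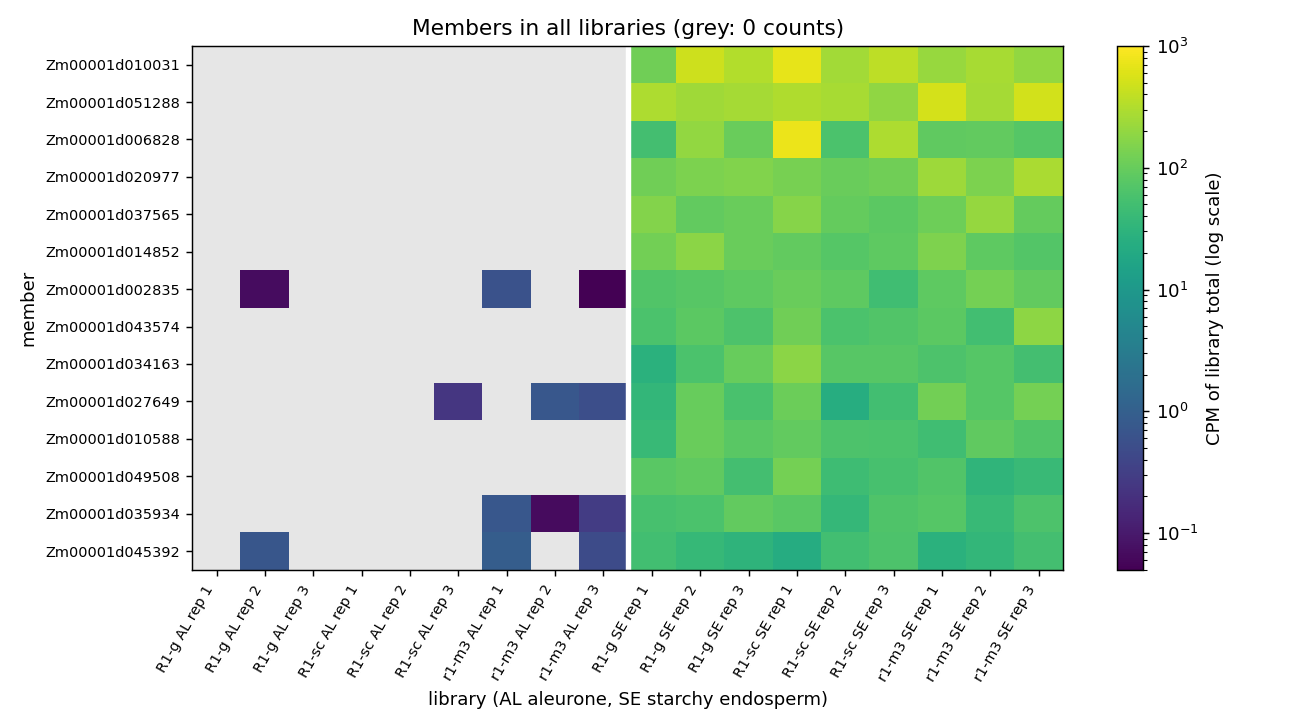
CPM of the 14 members (rows, ordered by their mean in the starchy endosperm) in the 18 libraries (columns), on a log colour scale, with grey for 0 counts. The 9 starchy endosperm columns are filled throughout, while the 9 aleurone columns are grey except for 4 members, whose highest value is 0.941 CPM.

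Staying below 1 CPM in all 9 aleurone libraries was rare among gene models this steadily read in the starchy endosperm. The 4 features left out by ID are not counted here, except in the mirror choice, which left out none. Of 1285 nuclear gene models at 20 CPM or more in all 9 starchy endosperm libraries, 1009 (78.5%) reached 1 CPM in all 9 aleurone libraries. Those that reached it in none were the 14 members, or 1.09%, and 9 reached it in a single aleurone library. The mirror choice, 20 CPM or more in all 9 aleurone and below 1 CPM in all 9 starchy endosperm libraries, found 87 of 1397, or 6.23%. From the other side, 25223 nuclear gene models stayed below 1 CPM in all 9 aleurone libraries, and 25032 of them did not reach 20 CPM in any starchy endosperm library. These shares follow from the limits and were not tested.

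**Figure D2:**
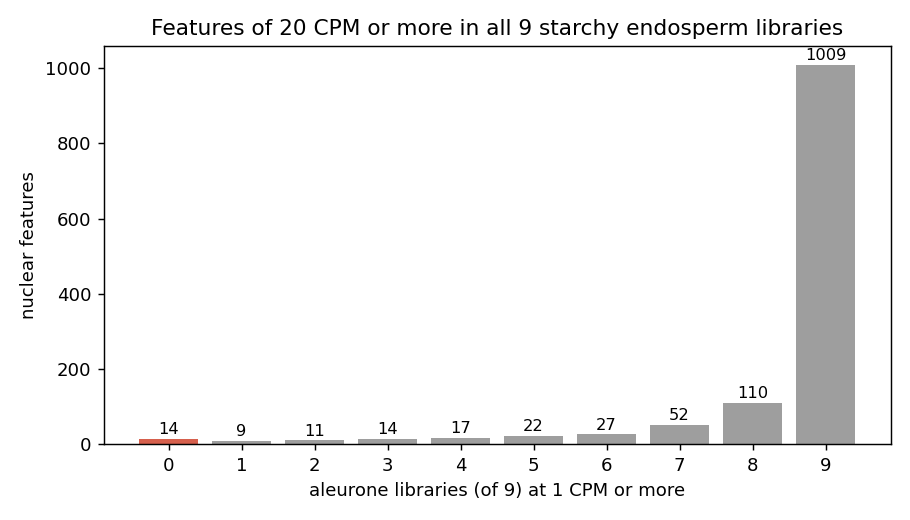
Number of nuclear features (bars) by how many of the 9 aleurone libraries reach 1 CPM, for the 1285 features at 20 CPM or more in all 9 starchy endosperm libraries. The red bar at 0 holds the 14 members, and the bar at 9 holds 1009 features. The 4 features left out by ID are not counted.

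Several gene models lay close to the limits. Just inside the starchy endosperm limit were Zm00001d045392, Zm00001d027649 and Zm00001d034163, with lowest values of 23.3, 24.2 and 27.6 CPM, and just outside were Zm00001d015414 (19.6), Zm00001d029506 (17.6) and Zm00001d047066 (17.0). Just inside the aleurone limit were Zm00001d045392, Zm00001d035934 and Zm00001d027649, with highest values of 0.941, 0.739 and 0.724 CPM. Just outside it were Zm00001d032095 (1.19), Zm00001d049510 (1.76) and Zm00001d037439 (2.69). Membership of Zm00001d045392 and Zm00001d027649 is therefore marginal on both sides.

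In the starchy endosperm the members' mean levels over 9 libraries ran from 41.3 ± 13.0 CPM for Zm00001d045392 to 324 ± 173 CPM for Zm00001d010031 (SD). Their median mean was 85.9 CPM, beside 88.6 CPM for the 1271 other nuclear gene models past the same limit. CPM is not corrected for transcript length, which is not known here for these IDs, so the order of the members is one of read yield and not of RNA molecules. Between libraries the members varied by a median coefficient of variation of 37.1% (range 25.7% to 116%), and the 1271 others by 35.0%. The ratio of the highest to the lowest library had a median of 2.70 in the members and 3.02 in the others. Within genotypes, the mean coefficient of variation of a gene model over the 3 groups had a median of 35.8% in the members, 29.8% in the others and 30.7% in the 1088 others whose mean level lay within the members' range. These differences were not tested.

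**Figure D3:**
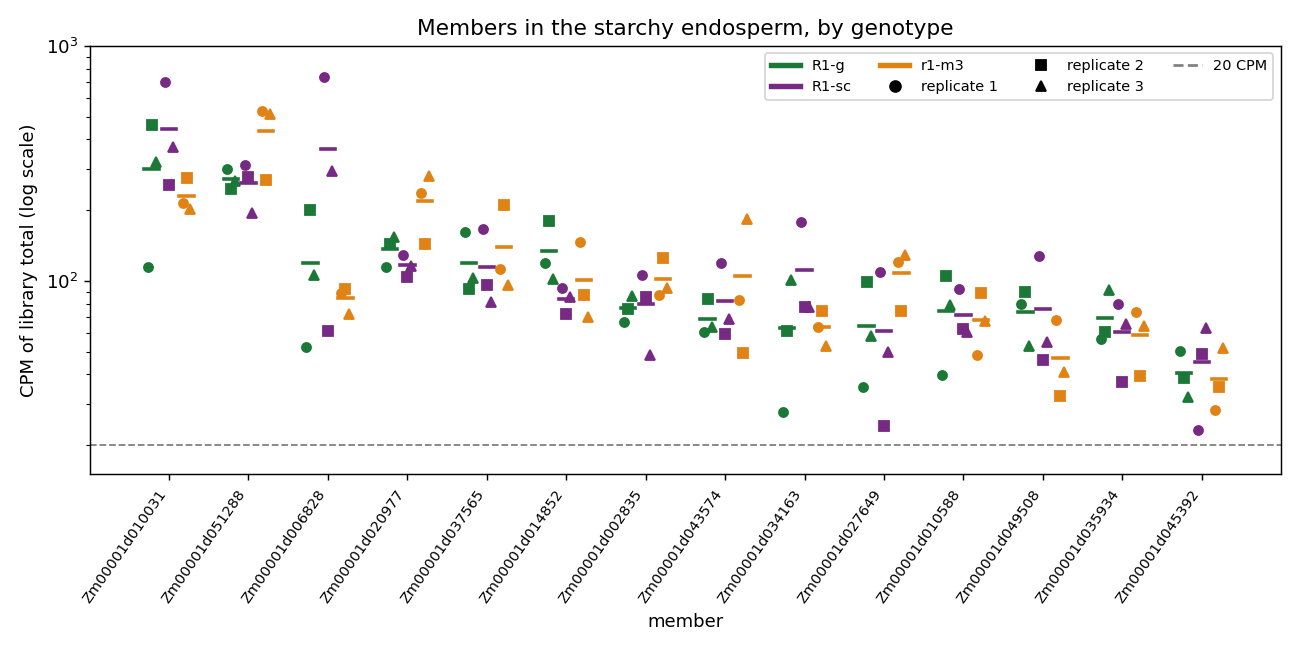
CPM (log axis) of the 14 members in the 9 starchy endosperm libraries, coloured by genotype, with a symbol for each replicate number and a bar at the mean of 3 libraries. The 20 CPM limit is dashed; Zm00001d006828 shows the widest scatter, from 52.5 to 741 CPM, and Zm00001d035934 a narrow one, from 37.0 to 91.7 CPM.

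The members that varied most did so in the same libraries. Zm00001d006828, with a coefficient of variation of 116%, stood at 52.5, 201 and 106 CPM in replicates 1 to 3 of R1-g, at 741, 61.4 and 295 CPM in R1-sc and at 88.6, 92.4 and 72.3 CPM in r1-m3. Zm00001d010031 (53.5%) stood at 115, 463 and 321 CPM in R1-g, at 700.0, 257 and 371 CPM in R1-sc and at 215, 273 and 202 CPM in r1-m3. Zm00001d034163 (53.5%) stood at 27.6, 61.0 and 101 CPM in R1-g, at 179, 77.3 and 77.2 CPM in R1-sc and at 63.7, 74.1 and 52.7 CPM in r1-m3. All 3 were lowest in R1-g replicate 1 and highest in R1-sc replicate 1. R1-g replicate 1 gave the lowest value for 4 of the 14 members, Zm00001d010588 among them, and for 10.3% of the 1271 others. The 3 members of largest variation were steady within r1-m3, with coefficients of variation of 12.6%, 16.5% and 16.9% over its 3 libraries. They were uneven within R1-g (62.9%, 58.4% and 58.2%) and R1-sc (94.4%, 52.0% and 52.8%). The mean levels of 2 of them, Zm00001d006828 and Zm00001d010031, followed the order R1-sc, R1-g, r1-m3, and libraries of the genotypes overlapped for both.

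The summed level of the members was highest in R1-sc replicate 1, with a large part from the 3 members of largest variation. Their variation itself includes their peak in this library. The median member stood there at 1.42 times its own median, and the median of the 1271 others at 1.07 times. This library gave the highest value for 4 of the 14, Zm00001d049508 with 128 CPM being the fourth, and 6 of the 14 were at least 1.5 times their own median there, as were 21.2% of the 1271 other gene models past the same limit. The sum over the 14 was 2976 CPM in this library and 1281 to 1939.5 CPM in the other 8. Those 3 made up 1620 CPM of it, and the other 11 together stood at 1356 CPM, inside their range of 887 to 1589 CPM over the 9 libraries and below r1-m3 replicates 1 and 3 (1531 and 1589 CPM). R1-sc replicate 1 had the fewest feature counts (12.5 M). It also gave the highest value for 20.1% of the 1271 other gene models, the largest share of the 9 libraries. The part of this library's composition in the result was not tested.

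**Figure D4:**
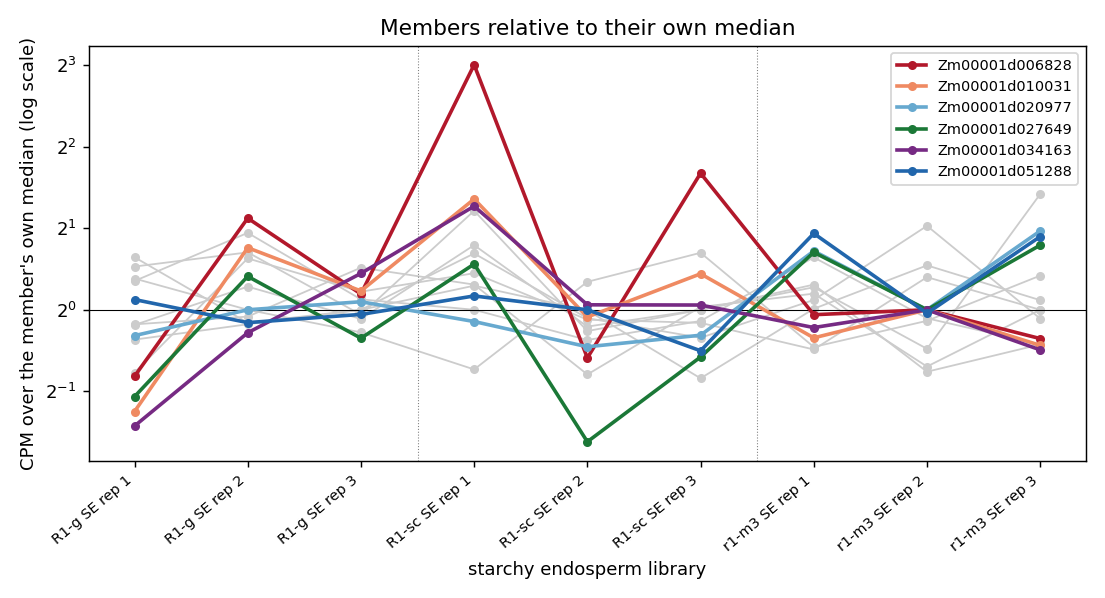
CPM of each member divided by its own median over the 9 starchy endosperm libraries (log axis), by library, with 6 members coloured and the other 8 in grey. Zm00001d006828, Zm00001d010031 and Zm00001d034163 peak in R1-sc replicate 1 at 8.02, 2.56 and 2.41 times their median, and Zm00001d051288, Zm00001d020977 and Zm00001d027649 have their 2 highest points in r1-m3 replicates 1 and 3.

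For 3 members the highest values lay in r1-m3 replicates 1 and 3. These 3 also had the smallest p of the members between r1-m3 and R1-g, which uses the same values. How many of the 1271 others show this pattern was not counted. Replicates 1 and 3 of r1-m3 gave the single highest value for 1 and 3 of the 14 members. For the 1271 others the shares were 10.8% and 12.7%. Zm00001d051288, second by mean level, stood at 301, 247 and 265 CPM in R1-g, at 310.2, 276 and 195 CPM in R1-sc and at 528, 268 and 514 CPM in r1-m3. Zm00001d020977 stood at 115, 143 and 153 CPM in R1-g, at 129, 104 and 115 CPM in R1-sc and at 236, 143 and 279 CPM in r1-m3. Zm00001d027649 stood at 35.5, 98.5 and 58.3 CPM in R1-g, at 109, 24.2 and 49.7 CPM in R1-sc and at 121, 74.2 and 128 CPM in r1-m3. In all 3, replicates 1 and 3 of r1-m3 lay above the other 7 libraries, and r1-m3 replicate 2 lay among those, with the narrowest gap, 121 against 109 CPM, in Zm00001d027649. Zm00001d043574 was also highest in r1-m3 replicate 3, at 184 CPM, but its r1-m3 replicate 2, at 49.3 CPM, was the lowest of all 9.

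Other members moved less, or moved with no group. Zm00001d002835 varied least (25.7%), at 66.9, 76.2 and 86.2 CPM in R1-g, 106, 85.8 and 48.2 CPM in R1-sc and 87.0, 126 and 93.5 CPM in r1-m3. Zm00001d035934 (27.9%) ranged from 37.0 to 91.7 CPM with a median of 64.1, and Zm00001d010588 (30.0%) from 39.6 to 105 CPM with a median of 67.6. In both, the ranges of the 3 genotypes overlapped, and the highest and lowest genotype means differed by 1.18-fold and 1.09-fold. Zm00001d037565 was highest in r1-m3 replicate 2 (211 CPM), with R1-g and R1-sc replicates 1 next at 161 and 167 CPM. Zm00001d045392, unlike the 4 members that peaked in R1-sc replicate 1, was lowest there, at 23.3 CPM, and highest in R1-sc replicate 3, at 62.8 CPM.

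The genotype comparisons ask whether the R1 allele goes with the level of a gene model in the starchy endosperm. In edgeR's quasi-likelihood test on the 9 starchy endosperm libraries, all 14 members entered among 12909 features, and 0 of the 14 passed an adjusted p of 0.05 in each of the 3 comparisons. Calls were rare in general: 0.031% of the features tested were called between R1-sc and R1-g, 0.0155% between r1-m3 and R1-g and 0.0542% between r1-m3 and R1-sc. Most of these features did not have to pass the 20 CPM limit. Of the 1271 other nuclear gene models that did, 1, 0 and 1 were called. At an unadjusted edgeR p under 0.05 there were 1, 2 and 3 members in the 3 comparisons, where 7.24%, 7.11% and 10.2% of all features tested lay under it. Of the 1271 others, 9.68%, 9.60% and 9.36% did. DESeq2 called 0, 0 and 1 member, beside 1.22%, 1.36% and 2.92% of all features tested. The SE of a member's log2 fold change was 0.31 to 0.57, so changes of the size seen in most members cannot be told from none with 3 libraries a group.

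**Figure D5:**
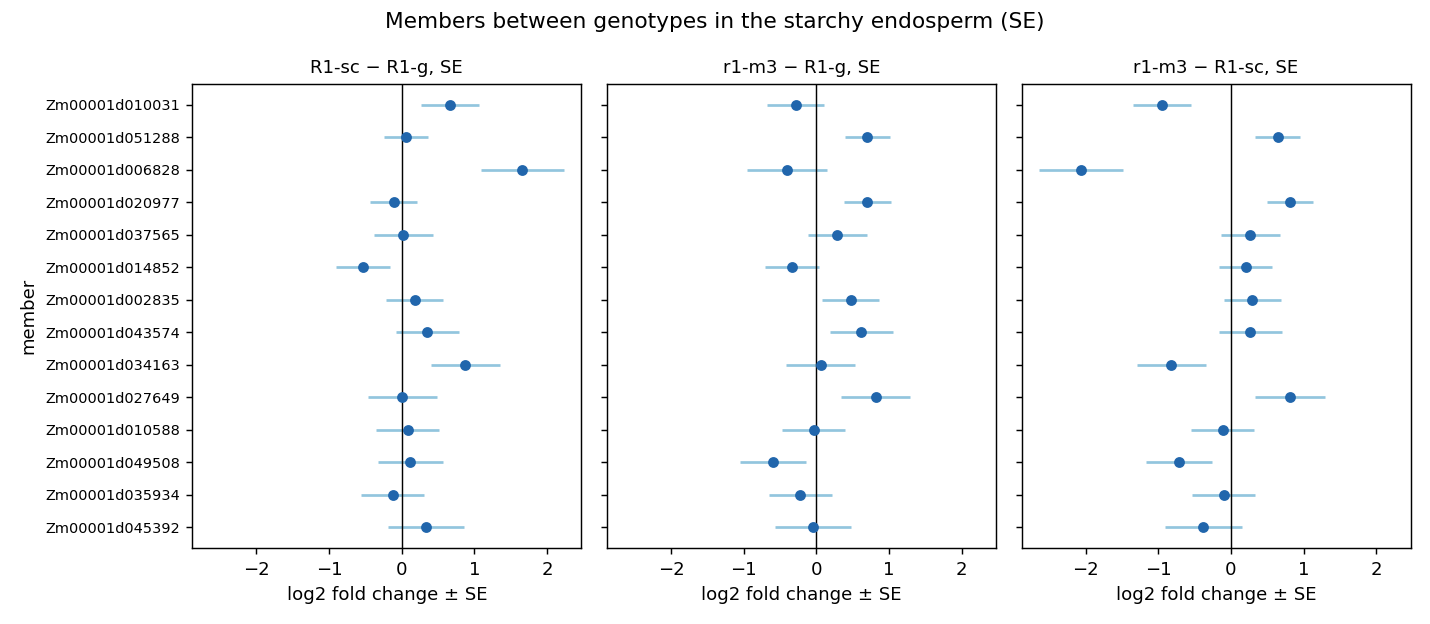
Log2 fold change (points) with its SE (bars) from edgeR for each of the 14 members in the 3 genotype comparisons of the starchy endosperm. Zm00001d006828 lies farthest from 0, at 1.66 between R1-sc and R1-g and -2.06 between r1-m3 and R1-sc, and no point passes an adjusted p of 0.05.

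Between R1-sc and R1-g, the members' log2 fold changes had a median of 0.10 (range -0.53 to 1.66), with 11 above 0 and 3 below, beside a median of -0.04 over all features tested. The 1271 other nuclear gene models past the same starchy endosperm limit had a median of 0.13, with 753 above 0 and 518 below. Among the members, the smallest p values belonged to Zm00001d006828, Zm00001d034163 and Zm00001d010031, which were the 3 of largest variation. That variation is taken over all 9 starchy endosperm libraries, those compared here included, so p and variation share values. Zm00001d006828 averaged 366 ± 345 CPM in R1-sc and 120 ± 75.4 in R1-g (SD, n = 3 each; log2 fold change 1.66, SE 0.57, edgeR adjusted p = 0.634). Without R1-sc replicate 1 its log2 fold change was 0.80. Zm00001d034163 averaged 111 ± 58.6 against 63.2 ± 36.7 CPM (0.88, SE 0.48, edgeR adjusted p = 0.772), which became 0.52 without the same library and 1.47 without R1-g replicate 3. Zm00001d010031 averaged 443 ± 230 against 299 ± 175 CPM (0.67, SE 0.40, edgeR adjusted p = 0.821), which was 0.29 without R1-g replicate 1. In this pair of genotypes the libraries lay apart for 1 member, Zm00001d014852, and for 13.9% of all features tested. Its R1-g libraries stood at 120, 180 and 102 CPM and its R1-sc libraries at 93.7, 72.5 and 85.2 CPM (log2 fold change -0.53, SE 0.37, edgeR adjusted p = 0.895).

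Between r1-m3 and R1-g the median log2 fold change of the members was 0.01 (range -0.60 to 0.81), with 7 above 0 and 7 below. It was -0.01 over all features tested and 0.15 over the 1271 others, with 782 above 0 and 489 below. Zm00001d051288 averaged 436 ± 146 CPM in r1-m3 and 271 ± 27.3 in R1-g (SD, n = 3 each; log2 fold change 0.70, SE 0.31, edgeR adjusted p = 0.645). Zm00001d020977 averaged 219 ± 69.6 against 137 ± 19.9 CPM (0.70, SE 0.32, edgeR adjusted p = 0.667). In each of these, 2 of the 3 r1-m3 libraries lay above all 3 of R1-g, a pattern that was not counted over all features. Zm00001d027649 had the largest positive value (0.81, SE 0.48, edgeR adjusted p = 0.835), with means of 108 ± 29.4 CPM in r1-m3 and 64.1 ± 31.9 CPM in R1-g. The libraries lay apart for 1 member, Zm00001d002835, whose lowest r1-m3 value of 87.0 CPM was just above its highest R1-g value of 86.2 CPM, and for 14.3% of all features tested.

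Between r1-m3 and R1-sc the spread of the members was widest, with log2 fold changes from -2.06 to 0.81, a median of 0.05 and 7 on each side of 0. The median was 0.03 over all features tested and -0.02 over the 1271 others, with 617 above 0 and 654 below. Zm00001d006828 averaged 84.4 ± 10.7 CPM in r1-m3 and 366 ± 345 CPM in R1-sc (SD, n = 3 each), a difference of 4.33-fold between means (log2 fold change -2.06, SE 0.57, edgeR adjusted p = 0.306). DESeq2 called it, with an adjusted p of 0.0253. It was also called by edgeR when R1-sc replicate 2 was left out (-2.55, edgeR adjusted p = 0.0152), a fit that called 0.161% of all features tested. Without a filter on low counts edgeR called it here and between R1-sc and R1-g, beside 0.576% and 0.216% of all features. Without R1-sc replicate 1 the edgeR log2 fold change was -1.20. Its R1-sc libraries, at 61.4 to 741 CPM, enclosed all 3 r1-m3 libraries, so the difference rests on R1-sc replicates 1 and 3.

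Zm00001d020977 averaged 219 ± 69.6 CPM in r1-m3 and 116 ± 12.5 in R1-sc (SD, n = 3 each; log2 fold change 0.81, SE 0.32, edgeR adjusted p = 0.421). Its 3 r1-m3 libraries all lay above the 3 of R1-sc. Zm00001d010031 averaged 230.0 ± 37.9 against 443 ± 230 CPM (-0.95, SE 0.40, edgeR adjusted p = 0.432), with overlapping libraries. The only other member whose libraries lay apart in this pair was Zm00001d034163, lower in all 3 libraries of r1-m3, at 52.7 to 74.1 CPM against 77.2 to 179 CPM (-0.82, SE 0.48, edgeR adjusted p = 0.604). These 2 members compare with 12.5% of all features tested, and neither was called.

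Across the 3 genotypes r1-m3 had the highest mean for 6 members and the lowest for 6, R1-sc the highest for 5 and the lowest for 5, and R1-g the highest for 3 and the lowest for 3. This order was not counted over other features, so the split describes the members only. The highest and lowest genotype means differed by a median of 1.61-fold (range 1.09 to 4.33), by 2-fold or more in 1 member, Zm00001d006828, and by less than 1.5-fold in 5. The summed share of the 14 in all feature counts came to 0.161 ± 0.0330% for R1-g, 0.197 ± 0.0885% for R1-sc and 0.180 ± 0.0181% for r1-m3 (SD, n = 3 each), with overlapping libraries. Without its replicate 1, R1-sc averaged 0.147%.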

How the data were processed

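RNA of laser-microdissected aleurone and starchy endosperm was amplified to cDNA and sequenced, per the labels' protocols. The authors deposited 1 table of read counts per library, whole numbers without normalization; per the submitters' processing notes, the tools were HTSeq 0.11.2, HISAT2, Trimmomatic 0.39, SAMtools, FastQC and DESeq2, on the build B73 RefGen_v4. The strand setting is not given in the sources used here, so a gene's reads cannot be separated from those of an overlapping or antisense partner. The 5 rows per table that name no feature took 66.9% to 75.0% of the reads and were left out; reads aligned to several places, 42.2% to 55.0%, were given to no feature, so near-identical copies are uncertain.

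CPM used feature totals. Genotypes were compared in the 9 starchy endosperm libraries with edgeR 4.0.16 in R 4.3.3 (filterByExpr, TMM scaling, robust quasi-likelihood F tests, Benjamini-Hochberg adjustment over 12909 features, threshold 0.05), with the SE taken as the log2 fold change divided by the square root of F. Aleurone libraries were kept out of the main test, since the members have almost no counts there. DESeq2 1.42.0 was an alternative. The scripts were tested on simulated counts. Members and lists were chosen with earlier results of these data known. Members were named by level, spread, smallest p, distance to the limits and libraries that lay apart; the last, and Zm00001d043574, Zm00001d037565 and Zm00001d049508 among the patterns by library, were picked after values were seen. The planned marker lists and groups by function need gene names and were void. P-values set the difference between genotypes against the spread between libraries of a group, estimated over the 3 groups with information shared between features. The common biological coefficient of variation of the edgeR fit was 1.11, a value over all 12909 features tested. For the members, the mean coefficient of variation by CPM over the 3 groups had a median of 35.8%.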

Additional observations from a re-analysis of the deposited data

How the results depend on the processing

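Leaving out a library can only add members, since the limits must hold in all libraries. With any 1 of the 18 libraries left out, the number of members was 14 to 17. It was 28 with a starchy endosperm limit of 10 CPM and 6 with 50 CPM. With aleurone limits of 0.5 and 2 CPM it was 10 and 16, with 0 aleurone counts 10, with TMM-scaled totals 20 and with totals of nuclear features 16, of which 11 are members.

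Features called were 4 (R1-sc against R1-g), 2 (r1-m3 against R1-g) and 7 (r1-m3 against R1-sc). In that order, DESeq2 called 158, 176 and 377, no filter on low counts gave 46, 68 and 123, and all 18 libraries in 1 fit gave 10, 4 and 6. All libraries but r1-m3 aleurone replicate 3, an alternative chosen after seeing the data, gave 5, 4 and 5. Leaving out 1 starchy endosperm library gave 2 to 5, 2 to 5 and 3 to 23, the last without R1-sc replicate 2. Of the members, only Zm00001d006828 was called under any alternative: between r1-m3 and R1-sc by DESeq2 (1 member called), without a filter (1, adjusted p = 0.000128) and without R1-sc replicate 2, so that leaving out 1 library gave 0 to 1 members, and between R1-sc and R1-g without a filter (1, adjusted p = 0.0118). The cause was not tested. Members changed sign in 58 of 756 recomputed values, all for log2 fold changes of 0.40 or less.

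Same-numbered libraries of different genotypes did not deviate together (r of -0.09 to 0.02 over 9 pairs, and -0.03 to 0.09 over 18 pairs of unlike number). With the replicate block 3, 2 and 5 features and 0 members were called.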

Other observations

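Of the gene models that passed the starchy endosperm limit and missed the aleurone limit, 2 with low aleurone levels carry IDs close to those of members. They were looked up after the values were seen, among nuclear gene models within 3 ID numbers of a member. The limits were 20 CPM or more in all 9 starchy endosperm libraries and below 5 CPM in all 9 aleurone libraries. In all, 25 gene models pass these limits, the 14 members among them. Zm00001d045391, next to Zm00001d045392, stood at 326 ± 91.1 CPM in the starchy endosperm (SD, n = 9) and had 181 aleurone counts, all in 3 libraries, with at most 4.01 CPM in r1-m3 replicate 3. Zm00001d049510, near Zm00001d049508, stood at 115 ± 42.9 CPM and had 68 aleurone counts in 4 libraries, with at most 1.76 CPM in r1-m3 replicate 3. Genome positions of these IDs are not used here, and whether the pairs are copies that share reads was not tested.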
